A study of Mus musculus with 69 samples.

Results

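The transcripts of 8 genes were followed through the whole series: the fatty acid receptors Ppara, Ppard and Pparg, their dimer partners Rxra, Rxrb and Rxrg, and the coactivators Ppargc1a and Ppargc1b. They were picked by symbol, as the rows of the WT VSMC, KO VSMC and EC count tables whose Ensembl identifiers carry these names, and are 8 of the 56953 genes in those tables. RNA-Seq counts of 69 libraries from male C57BL/6 mice were used. WT VSMC were primary smooth muscle cells of the thoracic and abdominal aorta, and KO VSMC were the same cells from mice in which Cre under the SM22 promoter deletes a floxed Egfr gene, a deletion limited to cells in which that promoter has been active. EC were primary cells of the heart, purified with antibody-coated beads as CD45-/CD31+ cells and labelled WT. After up to 7 passages and 24 h without serum, cells received Control medium, HG + FFA (20 mM glucose with 100 µM free fatty acids as the labels have it, oleate and palmitate each at that dose in the study's text), AII + NA (30 nM angiotensin II with 300 nM epinephrine as the labels have it, norepinephrine in the study's text), or ALL of these, for 24 h. Libraries formed 18 sets, each the cells of 1 animal at 1 passage under up to 4 conditions: sets 1 to 4 for WT VSMC (16 libraries), 5 to 8 for KO VSMC (15) and 9 to 18 for EC (38). ALL of set 5, Control of set 10 and AII + NA of set 15 were not analysed here, sets 17 and 18 came from the same animal, and 4 of the animals gave both an EC and a VSMC set.

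PPARs are nuclear receptors that bind fatty acids and their derivatives and switch on genes for fatty acid uptake, storage and oxidation. They bind DNA as dimers with a retinoid X receptor, at direct repeats of the hexamer AGGTCA spaced by a single base, and recruit coactivators such as PGC-1α, the product of Ppargc1a. In the vessel wall PPARγ and PPARδ are known as the main forms in smooth muscle and endothelium, where they restrain inflammation and control lipid handling.

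The receptor's own element was searched for around the members, to see whether the genes hold the sequence that their products bind. Positions are on GRCm39. The pattern was a pair of AGGNCA hexamers in direct repeat with a single base between them (N is any base), on both strands and within 5000 bases on each side of the gene start. It occurred at 3579 of 21770 protein-coding genes (16.4%) and at 2 of the 8 members, Ppard (2778 bases upstream) and Rxrb (3899 bases upstream). The copy at Ppard, chr17:28448890-28448902, and the copy at Rxrb, chr17:34246854-34246866, are printed on the + strand with the pattern in capitals and 8 flanking bases on each side.
Ppard: gtgtgtagAGGTCAGAGGACAactttcag
Rxrb: aagggaggAGGTCAGAGGTCAcggggcgc
The copy at Rxrb has AGGTCA as both hexamers, a form found at 456 of the 21770 genes (2.09%). These matches are letters in a window and no evidence of binding.

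All 8 are protein-coding genes. On GRCm39 the receptors lie at chr15:85618656-85687067 (Ppara, ENSMUSG00000022383), chr17:28451674-28520448 (Ppard, ENSMUSG00000002250) and chr6:115337675-115468268 (Pparg, ENSMUSG00000000440). The partners lie at chr2:27566452-27653330 (Rxra, ENSMUSG00000015846), chr17:34250759-34257376 (Rxrb, ENSMUSG00000039656) and chr1:167425673-167467193 (Rxrg, ENSMUSG00000015843), and the coactivators at chr5:51611592-51725068 (Ppargc1a, ENSMUSG00000029167) and chr18:61431195-61533735 (Ppargc1b, ENSMUSG00000033871). Of the exonic bases of Ppara, 27.37% also belong to a gene on the other strand, against 6.04% for Ppard, 4.83% for Ppargc1b and at most 1.81% for the rest. Since the strand setting of the counting is not stated, reads of Ppara and of its antisense partner cannot be told apart.

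Depth ran from 17166133 to 43240489 counts per library, with medians of 30093005 for WT VSMC, 29812564 for KO VSMC and 24355492 for EC. The summed level of 8 endothelial markers was 46.7 to 4887 FPM (counts per 1000000 of TMM-scaled library size) in EC and at most 68.8 FPM in VSMC. EC sets 9, 11 and 13 stood apart: their set means were 53.0, 136 and 59.1 FPM against 547 to 4400 FPM in the other EC sets, and their smooth muscle markers exceeded their endothelial markers. Egfr averaged 246 to 430 FPM in WT VSMC, 36.5 FPM in KO VSMC set 5 and at most 1.84 FPM in the other KO VSMC sets. EC sets 15 and 16, labelled WT, came from the animals of KO VSMC sets 7 and 6 and held 9.31 and 2.61 FPM. The other EC sets varied widely, from 12.6 FPM in set 18 to 154 FPM in set 11. Smooth muscle marker Acta2 was at 222 FPM or more in every VSMC library, but EC libraries also held 155 to 3708 FPM. In WT VSMC, Smtn, Lmod1 and Cnn1 had medians of 69.5, 36.8 and 21.3 FPM, while Myh11 and Des reached at most 13.5 and 2.81 FPM. Under Control in WT VSMC the smooth muscle markers summed to 352 to 1191 FPM and the fibroblast markers to 1906 to 4525 FPM. In KO VSMC under Control these sums were 1000 to 3037 FPM and 246 to 1886 FPM. Tagln, the gene of SM22, reached at most 11.2 FPM in VSMC. Of the exonic bases of Tagln 66.73% also belong to a gene on the other strand, and with the strand setting unknown its count is uncertain. Adipocyte markers, which matter for Pparg, summed to at most 1.83 FPM in any library. Markers of macrophages and other leukocytes summed to 29.3 to 240 FPM in WT VSMC, 10.8 to 152 FPM in KO VSMC and 4.05 to 106 FPM in EC. Among them Lyz2 reached 201 FPM in WT VSMC, while Ptprc reached at most 1.67 FPM in any library. The part of such cells in the Pparg values was not tested. The batch label is B1 for all VSMC and B2 for all EC, so batch and cell type cannot be told apart. As in any bulk sample, a lower level can mean fewer cells of a type or less RNA per cell, and these cannot be told apart either.

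RXRα and RXRβ, the shared partners, were the most abundant of the 8 transcripts in all 3 cell types, and 4 of the 8 were barely present. In FPM per kb of exon, so that genes can be compared, the mean over the WT VSMC sets was 23.1 ± 4.03 for Rxra, 17.2 ± 3.95 for Rxrb, 5.76 ± 1.46 for Ppard and 0.678 ± 0.114 for Pparg (SD, n = 4 sets). In EC the same order held, with 18.1 ± 4.40 for Rxra, 11.4 ± 1.92 for Rxrb, 4.08 ± 0.888 for Ppard and 1.24 ± 0.424 for Pparg (SD, n = 10 sets). In KO VSMC the means were 18.8 ± 1.55, 17.9 ± 1.93, 5.13 ± 0.807 and 0.541 ± 0.308 in that order (SD, n = 4 sets). The ranges of Rxra and Rxrb over sets overlapped in each cell type, whereas those of Rxrb, Ppard, Pparg and the next gene did not. Among receptors of the PPAR group, Ppard, the form found in most tissues, was thus the leading transcript and Pparg the next.

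Ppara, Rxrg, Ppargc1a and Ppargc1b averaged at most 0.185 FPM per kb in any cell type, and their neighbours in the order overlapped. Ppara, the receptor best known from liver and heart, had 10 to 36 counts in each WT VSMC library. Rxrg, the partner known from muscle and brain, had 1 to 29 counts in WT VSMC but 0 counts in 10 of 15 KO VSMC and 22 of 38 EC libraries. A count of 0 allows a level of up to 0.185 FPM at the depth of the shallowest of these libraries (3 counts, counting error only), so that Rxrg was not detectable there rather than absent. When the 12 groups of cell type and condition were ordered by the mean of a member, the ranges of all 11 pairs of neighbours overlapped for each of the 8 genes.

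**Figure D1:**
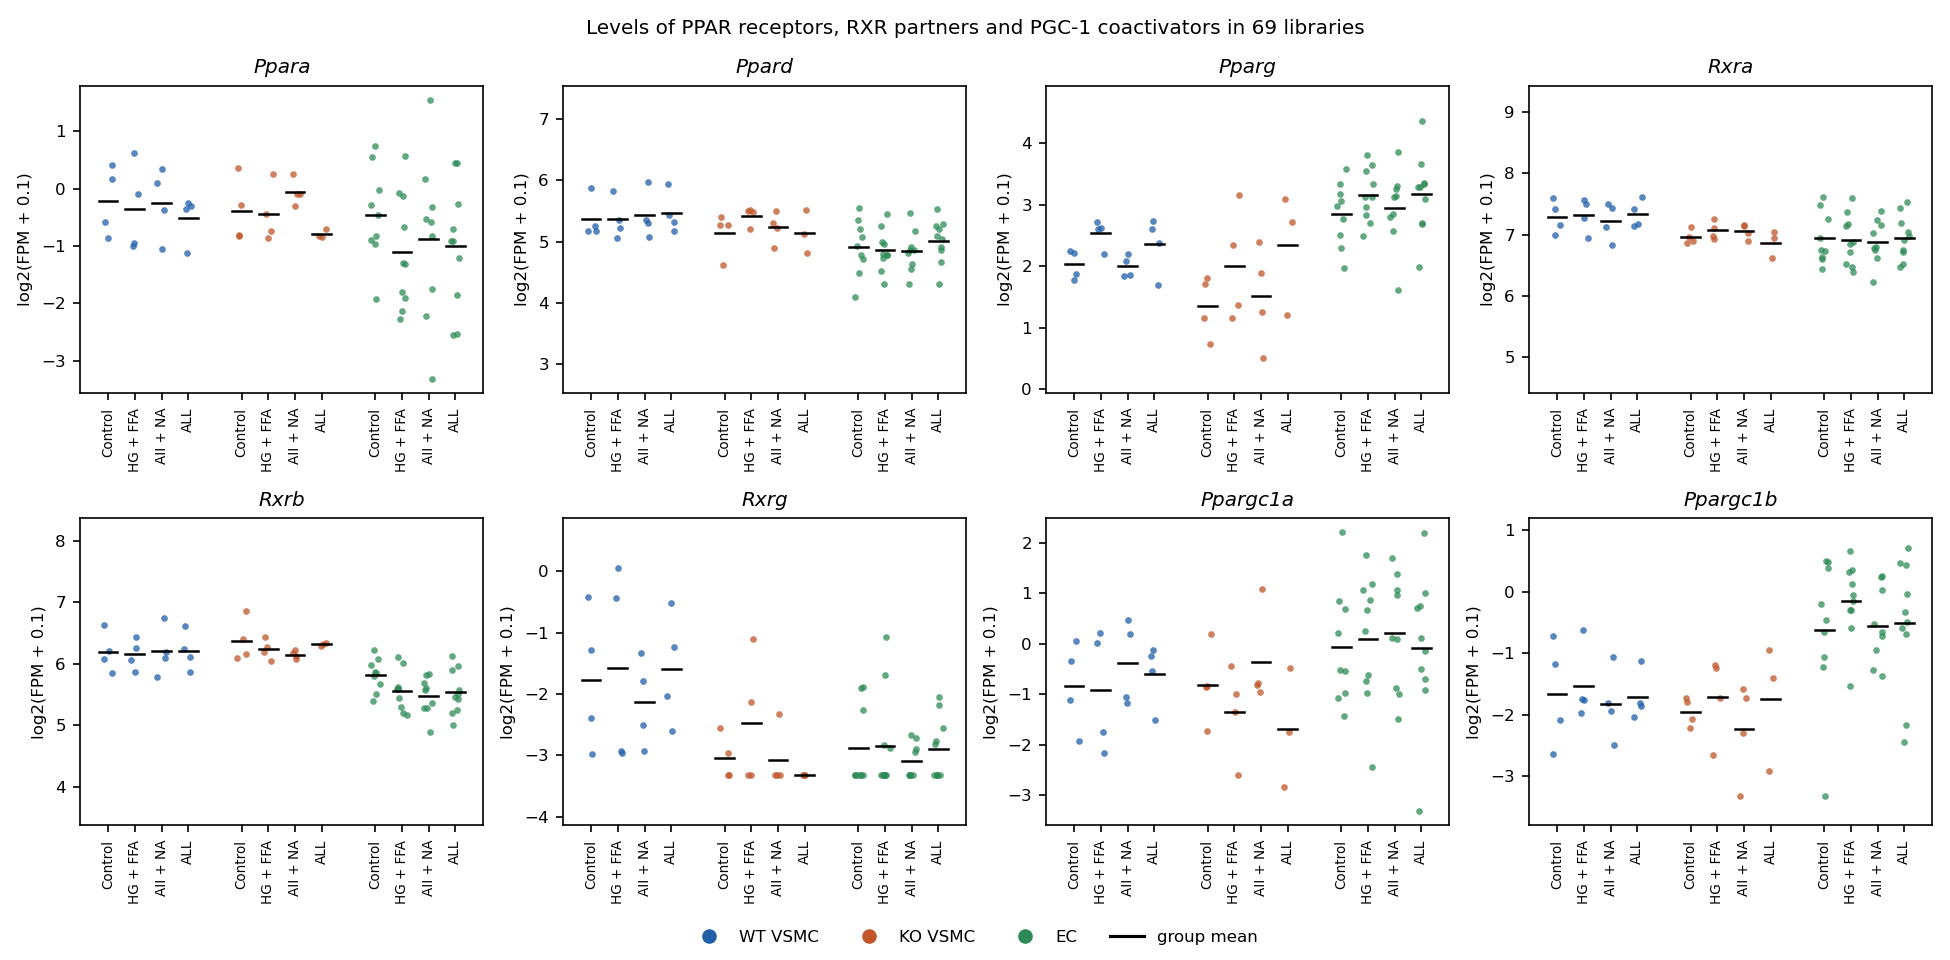
Level of each of the 8 genes in every library, as log2(FPM + 0.1), for the 4 conditions in WT VSMC, KO VSMC and EC. Points are libraries and bars are group means. Pparg libraries span 1.32 to 8.84 FPM in VSMC and 2.94 to 20.4 FPM in EC, and for every gene each stressor group overlaps the Control group of its cell type.

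None of the 8 genes passed the test in any comparison of a stressor with Control, and Pparg came nearest. The test was edgeR's quasi-likelihood test with the set as a block, at a Benjamini-Hochberg FDR under 0.05 over all genes tested, and FDR means this value below unless DESeq2 is named. Of 63 member tests in the 9 stressor comparisons, 0 were called. In WT VSMC, where all 8 were tested, the background share of genes called was 0.538% under HG + FFA, 0.0532% under AII + NA and 7.45% under ALL. It was 0.439%, 0.0% and 0.399% in KO VSMC (6 members tested, without Rxrg and Ppargc1b) and 3.53%, 0.0% and 3.18% in EC (7 tested, without Rxrg). A count of 0 among 6 to 8 genes is therefore near what the background alone gives. At an unadjusted p under 0.05, the members were Pparg under HG + FFA and ALL in WT VSMC (11.2% and 21.7% of all genes), Pparg and Ppard under HG + FFA and Pparg and Ppargc1a under ALL in KO VSMC (12.4% and 10.5%), Pparg and Rxrb under HG + FFA and ALL in EC (16.9% and 16.2%), Rxrb under AII + NA in EC (6.67%), and 0 under AII + NA in WT VSMC and KO VSMC (9.42% and 9.76%). By DESeq2, Pparg was called under HG + FFA in WT VSMC (1.74% of all genes) and under ALL in KO VSMC (1.48%), and no member in the other 7.

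**Figure D2:**
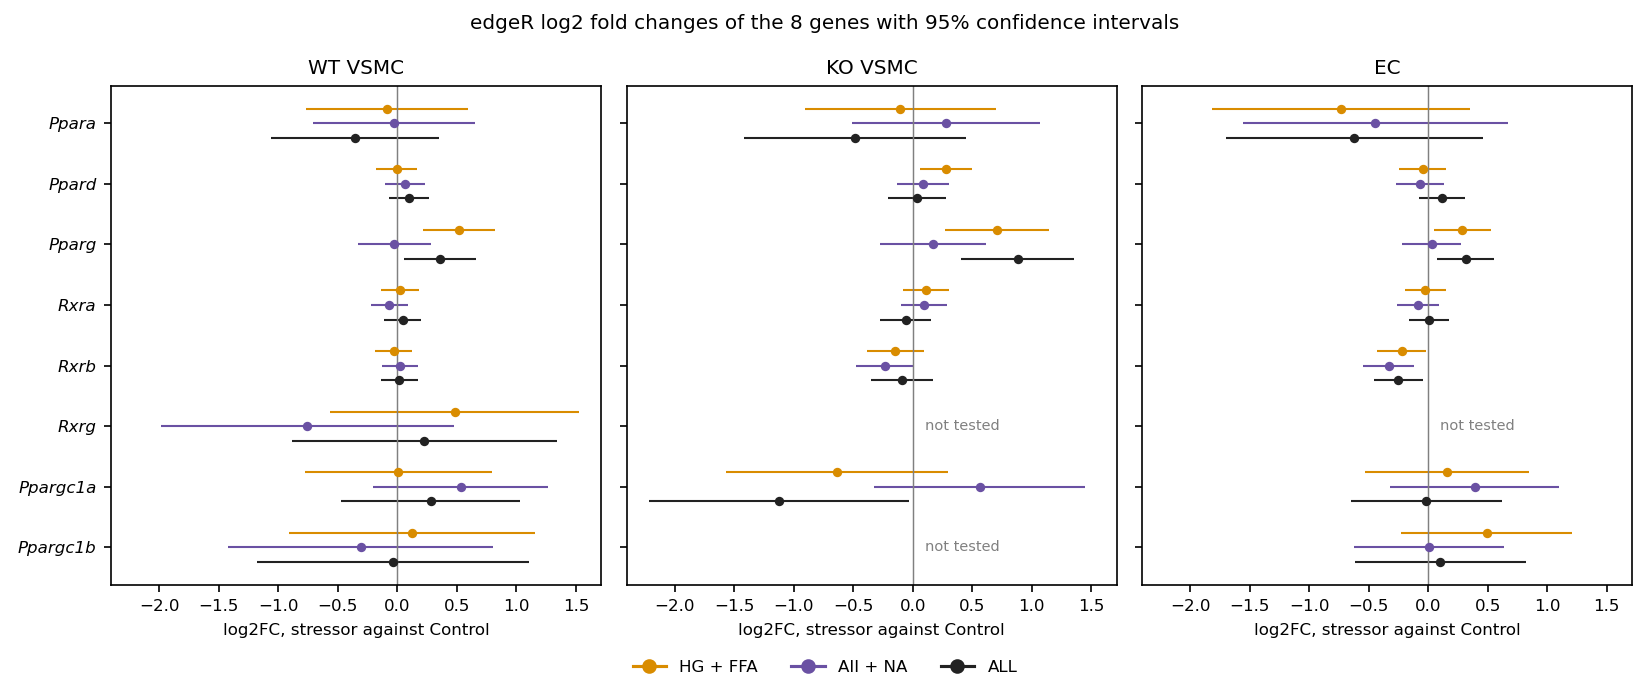
Estimated log2FC of the 8 genes for each stressor against Control, with 95% confidence intervals, in WT VSMC, KO VSMC and EC. The intervals of Pparg under HG + FFA and ALL lie above 0 in all 3 cell types and those of Rxrb in EC lie below 0, while in KO VSMC the interval of Ppard under HG + FFA lies above 0 and that of Ppargc1a under ALL below 0. Genes removed by the count filter are marked as not tested.

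Pparg encodes the receptor that drives fat cell formation and is the target of the glitazone drugs. In WT VSMC sets 1 to 4 it stood at 3.57, 4.56, 4.63 and 3.32 FPM under Control and at 6.00, 6.51, 6.03 and 4.5 FPM under HG + FFA. Every set was higher under HG + FFA than its own Control, although the lowest HG + FFA value lay just under the highest Control value. The estimate was a log2FC of 0.52 (SE 0.14, 95% interval 0.22 to 0.82, FDR 0.135, DESeq2 FDR 0.0451). Under ALL the sets stood at 5.10, 6.57, 6.01 and 3.12 FPM, higher than Control in 3 of 4 sets (log2FC 0.36, SE 0.14, FDR 0.155). Under AII + NA they stood at 4.13, 3.51, 4.51 and 3.48 FPM, all within the span of Control (log2FC -0.02, SE 0.15, FDR 0.978).

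In KO VSMC sets 5 to 8, Pparg stood at 2.12, 1.56, 3.17 and 3.40 FPM under Control and at 2.14, 2.49, 4.95 and 8.84 FPM under HG + FFA. Set 5 hardly moved and set 8 moved most, and the groups overlapped. The log2FC was 0.71 (SE 0.20, 95% interval 0.27 to 1.14, FDR 0.206). Under ALL, sets 6 to 8 stood at 2.21, 6.47 and 8.42 FPM, each above its Control, with a log2FC of 0.88 (SE 0.22, 95% interval 0.41 to 1.36, FDR 0.123, DESeq2 FDR 0.0159). Under AII + NA sets 5 to 8 stood at 2.27, 1.32, 3.58 and 5.14 FPM (log2FC 0.17, SE 0.21, FDR 0.743). Set 5 is the KO VSMC set with remaining Egfr RNA. It was also the highest KO VSMC set in fibroblast (1716 FPM against 235 to 827 FPM), leukocyte (141 against 13.5 to 35.4 FPM) and smooth muscle markers (3238 against 896 to 2001 FPM). In pericyte, cardiomyocyte and adipocyte markers it was not the highest. Without set 5 both values passed the test, at 0.90 (FDR 0.0256) under HG + FFA and 0.96 (FDR 0.0445) under ALL. The share of all genes called without it is not given here. The part of this set in the result was not tested.

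In EC the lowest, median and highest Pparg levels were 3.83, 7.83 and 11.9 FPM under Control (n = 9). They were 5.52, 8.64 and 14 FPM under HG + FFA (n = 10) and 3.87, 9.67 and 20.4 FPM under ALL (n = 10). The groups overlapped widely, but within sets Pparg was above Control in 9 of 9 sets under ALL and in 6 of 9 under HG + FFA. The log2FC was 0.31 under ALL (SE 0.12, 95% interval 0.08 to 0.55, FDR 0.148) and 0.29 under HG + FFA (SE 0.12, 95% interval 0.05 to 0.53, FDR 0.190). Under AII + NA the levels were 2.94, 8.62 and 14.5 FPM (n = 9), above Control in 5 of 8 sets (log2FC 0.03, SE 0.12, FDR 0.963). Without EC sets 9, 11 and 13 the estimates were 0.36 under ALL (FDR 0.204) and 0.25 under HG + FFA (FDR 0.420). Endothelial markers had median sums of 741 FPM under Control, which lacks set 10, and of 756 FPM with AII + NA, which lacks set 15. With all 10 sets the medians were 1365 FPM under HG + FFA and 1280 FPM under ALL. Sets 10 and 15 averaged 1893 and 2972 FPM, so these medians differ in the sets they hold as well as in treatment. The part of these markers in the Pparg values was not tested. Across the 9 to 18 alternative analyses of each cell type, the estimate under HG + FFA and ALL stayed above 0, between 0.22 and 1.16. It passed the test in 2 of 9 for HG + FFA in WT VSMC and in none for ALL there. In KO VSMC it passed in 3 of 10 for HG + FFA and 4 of 10 for ALL, and in EC in none. Of the KO VSMC alternatives, complete sets only and leaving out set 5 are the same fit, and both are counted.

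**Figure D3:**
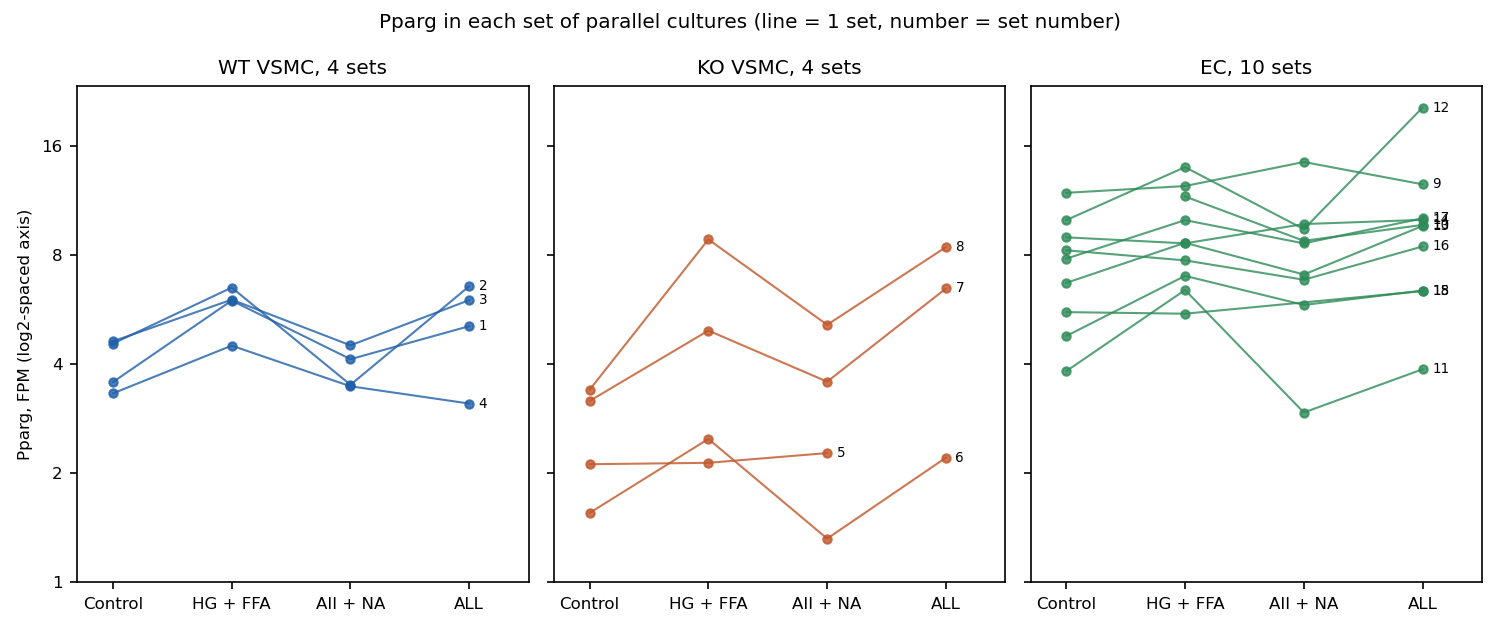
Pparg level in FPM (log2-spaced axis) in the 4 conditions, with 1 line per set, for WT VSMC, KO VSMC and EC. Under HG + FFA 4 of 4, 4 of 4 and 6 of 9 sets are above their Control in WT VSMC, KO VSMC and EC, and KO VSMC set 5, at 2.12 and 2.14 FPM, is nearly flat and has no ALL library.

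Ppard, the receptor linked to fatty acid oxidation in muscle, shifted little on average. Single sets moved further, with log2 ratios to Control from -0.64 to 0.72 in EC under AII + NA. In WT VSMC sets 1 to 4 it stood at 35.9, 35.8, 58.7 and 38.1 FPM under Control and 33.2, 40.7, 56.3 and 37.1 FPM under HG + FFA. Under AII + NA the sets were at 33.7, 39.2, 62.6 and 40.9 FPM, and under ALL at 43.1, 36.0, 61.0 and 39.7 FPM. Set 3 was the highest in each condition, and the 4 groups overlapped. In KO VSMC sets 5 to 8, Control was at 38.6, 38.6, 42.0 and 24.4 FPM and HG + FFA at 45.5, 44.6, 45.2 and 36.7 FPM, higher in 4 of 4 sets (log2FC 0.28, SE 0.10, 95% interval 0.06 to 0.50, FDR 0.317). The 95% intervals of the other 8 stressor comparisons lay between -0.27 and 0.31, which leaves room for changes of Ppard up to that size. In EC the medians were 30.2 FPM under Control, 27.6 FPM under HG + FFA, 28.9 FPM under AII + NA and 33.4 FPM under ALL, within an overall range of 17 to 46.7 FPM.

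Ppara was too scarce for a firm statement. Its libraries held 0.357 to 1.43 FPM in WT VSMC, 0.453 to 1.18 FPM in KO VSMC and 0 to 2.82 FPM in EC, and each stressor group overlapped its Control. The 9 stressor estimates lay between -0.73 and 0.28 with intervals as wide as -1.56 to 0.67 (AII + NA in EC), and changes of Ppara within such intervals were not detectable at this depth.

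Among the partners, Rxra stood at 127, 143, 171 and 194 FPM in WT VSMC sets 1 to 4 under Control and at 144, 141, 195 and 172 FPM under ALL. In KO VSMC sets 5 to 8 it stood at 139, 117, 119 and 125 FPM under Control and, in sets 6 to 8, at 132, 97.8 and 123 FPM under ALL. The conditions overlapped in both genotypes and no set moved far. In EC the medians were 107 FPM under Control, 117 FPM under HG + FFA, 111 FPM under AII + NA and 123 FPM under ALL. All 9 intervals of the stressor effects on Rxra lay between -0.27 and 0.30. For Rxrg, tested in WT VSMC alone among the cell types, the 3 estimates lay between -0.76 and 0.48, with a widest interval of -1.99 to 0.47 under AII + NA.

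Rxrb, the partner found in nearly every tissue, was lower in EC under each stressor, without passing the test. The lowest, median and highest levels in EC were 42.1, 57.6 and 74.7 FPM under Control, and 29.4, 47.4 and 56.8 FPM under AII + NA (n = 9 each). The groups overlapped, yet 8 of 8 sets were lower under AII + NA than under Control (log2FC -0.33, SE 0.11, 95% interval -0.55 to -0.12, FDR 0.719). Under HG + FFA the levels were 35.7, 48.3 and 69.1 FPM and under ALL 32.1, 44.5 and 69.9 FPM (n = 10 each), lower in 6 of 9 sets in both (log2FC -0.22 and -0.25, SE 0.10 in both, FDR 0.248 and 0.189). Without EC sets 9, 11 and 13 the 3 estimates were -0.22, -0.23 and -0.27 for AII + NA, HG + FFA and ALL, with FDR values of 0.999, 0.242 and 0.148. Cardiomyocyte markers summed to a median of 141 FPM in EC under Control and 80.8 to 85.8 FPM under the stressors, with overlap. These medians are over partly different sets. Over all EC libraries Tnnt2 had a median of 92.8 FPM, Tnni3 of 1.68 FPM, and Ryr2, Myl2 and Actn2 of at most 0.178 FPM. Myh6 had 0 counts in all 38 libraries. Since Tnnt2 had medians of 21.7 and 54.8 FPM in WT VSMC and KO VSMC, the sum is no clear sign of cardiomyocytes. The part of these markers in the Rxrb values was not tested. In WT VSMC sets 1 to 4 Rxrb stood at 57.4, 73.9, 98.7 and 67.5 FPM under Control and 55.0, 68.2, 108 and 73 FPM under AII + NA, with no common direction (log2FC 0.02, SE 0.07). In KO VSMC set 8 was the highest Control library at 116 FPM, against 68.2, 71.1 and 84.9 FPM in sets 5 to 7. Rxrb in KO VSMC stood at 72.3, 69.7, 67.1 and 75 FPM under AII + NA in sets 5 to 8. Under ALL, which set 5 lacks, it stood at 77.8, 80.4 and 80.5 FPM in sets 6 to 8. The log2 difference of ALL over AII + NA was 0.15 (SE 0.12, FDR 0.732).

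The PGC-1 coactivators, which dock on PPARs and other receptors to turn on mitochondrial genes, were low and uneven. Ppargc1a stood at 0.452, 0.461, 0.20 and 1.04 FPM in KO VSMC sets 5 to 8 under Control, at 0.401, 0.289, 0.0648 and 0.64 FPM under HG + FFA, and, in sets 6 to 8, at 0.198, 0.0397 and 0.612 FPM under ALL. Each set was below its Control under HG + FFA and under ALL, while the groups overlapped. The log2FC was -1.13 under ALL (SE 0.51, FDR 0.458) and -0.64 under HG + FFA (SE 0.44, FDR 0.540). In WT VSMC sets 1 to 4 Ppargc1a stood at 0.360, 0.686, 0.163 and 0.939 FPM under Control and 0.584, 0.812, 0.252 and 0.744 FPM under ALL, with a log2FC of 0.28 (SE 0.36, FDR 0.714). In EC its medians were 0.593 FPM under Control, 1.29 FPM with HG + FFA, 0.978 FPM with AII + NA and 0.897 FPM with ALL, over ranges that reached 4.53 FPM, and the 3 estimates lay between -0.02 and 0.39. Ppargc1b had 2 to 17 counts per library in WT VSMC, 0 to 11 in KO VSMC and 0 to 42 in EC, and its widest stressor interval was -1.18 to 1.11 (ALL in WT VSMC).

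The combination of stressors was compared with each stressor alone, and the departure of ALL from the sum of both effects on the log2 scale was tested as additivity. No member passed in any of the 9 comparisons. The background share called was in WT VSMC 0.0414% for the first comparison (ALL against HG + FFA), 1.36% for the second (ALL against AII + NA) and 0.0% for additivity. It was 0.0%, 0.399% and 0.0% in KO VSMC and 0.0%, 3.22% and 0.0% in EC. DESeq2 also called 0 members in all 9. At an unadjusted p under 0.05, ALL against AII + NA gave Pparg in all 3 cell types and Ppargc1a in KO VSMC, ALL against HG + FFA gave Ppard in KO VSMC, and additivity gave Ppard in KO VSMC and Rxrb in EC. The shares of all genes at that p, in the same order of comparisons, were 10.8%, 14.3% and 1.72% in WT VSMC, 2.91%, 10.4% and 6.59% in KO VSMC, and 5.14%, 15.4% and 8.42% in EC. For Pparg, ALL exceeded AII + NA by 0.38 for WT VSMC, 0.71 for KO VSMC and 0.28 for EC on the log2 scale (FDR 0.231, 0.223 and 0.211). Its departure from additivity was -0.14 in WT VSMC and 0.00 in KO VSMC. Ppargc1a in KO VSMC, at 0.468, 0.417, 0.486 and 2.02 FPM in sets 5 to 8 under AII + NA, was lower under ALL than under AII + NA by a log2 difference of -1.69 (SE 0.50, 95% interval -2.76 to -0.62, FDR 0.20).

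Loss of Egfr in VSMC was compared with WT VSMC under Control and, in a joint model, for each stressor effect. Under Control 0 of the 6 members tested were called, by edgeR or by DESeq2, with 0 at an unadjusted p under 0.05 (background 0.00622% of genes called by edgeR and 12.2% at that p). Pparg was lower in KO VSMC in 3 of the 4 sets than in the lowest WT VSMC set under Control, with a log2FC of -0.66 (SE 0.32, 95% interval -1.38 to 0.07, FDR 0.423). Rxra was at 117 to 139 FPM in KO VSMC and 127 to 194 FPM in WT VSMC under Control (log2FC -0.35, SE 0.17, FDR 0.419). For the stressor effects, 0 of 8 members were called by either tool (background by edgeR 0.0% with HG + FFA, 0.0% with AII + NA, 0.0109% with ALL). At an unadjusted p under 0.05 they were Ppard under HG + FFA (3.08% of all genes), 0 under AII + NA (11.9%) and Ppargc1a under ALL (7.42%). The effect on Ppard was larger in KO VSMC by 0.28 (SE 0.13, FDR 1.0), and the effect on Ppargc1a was lower in KO VSMC by a log2 difference of -1.41 (SE 0.60, FDR 0.614). The effect of ALL on Pparg differed by 0.53 (SE 0.26, FDR 0.672). Fibroblast markers summed to 1906 to 4525 FPM in WT VSMC and 246 to 1886 FPM in KO VSMC under Control, without overlap, and their part in these values was not tested.

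EC and WT VSMC were compared under Control, where Pparg, of the 7 members tested, gave the largest contrast for its error. It stood at 3.83 to 11.9 FPM in EC with a median of 7.83 FPM (n = 9 libraries of 8 animals) against 3.32 to 4.63 FPM in WT VSMC (n = 4), and EC set 9 and WT VSMC set 1 came from the same animal. The ranges overlapped at their ends, and the log2FC was 0.92 (SE 0.31, 95% interval 0.26 to 1.58, FDR 0.0635, DESeq2 FDR 0.0166). By edgeR 0 of 7 members were called in this comparison (background 12%). DESeq2 called Pparg alone (background 21.1%), which was also the one member at an unadjusted p under 0.05 (30.5%). Without EC sets 9, 11 and 13, chosen for their low endothelial markers after the data were seen, 3 members passed: Pparg at 0.94 (FDR 0.0249), Rxra at -0.59 (FDR 0.0143) and Ppard at -0.66 (FDR 0.0338). With these sets Rxra was at -0.31 (FDR 0.382) and Ppard at -0.42 (FDR 0.241). With 1 library per animal, EC sets 17 and 18 summed and EC set 9 left out, a choice made after the data were seen, Pparg was at 0.84 (FDR 0.0742) and 0 members were called. With counts summed over all conditions of a set, stressed libraries included, which is another contrast than that under Control, Pparg was at 0.90 (FDR 0.0309), Rxrb at -0.59 (FDR 0.0145) and Ppargc1b at 1.60 (FDR 0.0260). Leaving out EC set 11 alone brought Pparg to 1.02 (FDR 0.0283). The shares of all genes called in these refits are not given here. The background of 12% is that of the main fit, so the member counts of the refits cannot be set against it.

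Set means of the members were read beside the endothelial markers. Rxra averaged 150, 177 and 163 FPM in EC sets 9, 11 and 13, and 85.3 to 126 FPM in the other EC sets. The former lay within the span of the WT VSMC sets, 127 to 182 FPM, and the latter below it. Ppard averaged 32.5, 40.2 and 43.3 FPM in sets 9, 11 and 13, 21.1 to 31.7 FPM in the other EC sets and 36.5 to 59.6 FPM in the WT VSMC sets. Pparg averaged 12.8, 4.27 and 8.02 FPM in the 3 sets, within the 5.82 to 13.5 FPM of the others but for set 11. These sets were told apart by a measured value, so their difference was not tested. The stressor effects in EC and in WT VSMC were also compared, and 0 members were called by either tool (background by edgeR 0.0% with HG + FFA, 0.0465% with AII + NA, 0.511% with ALL). At an unadjusted p under 0.05 there were 0 under HG + FFA (2.05% of all genes), Rxrb under AII + NA (6.5%) and 0 under ALL (6.48%). The effect of AII + NA on Rxrb was lower in EC by a log2 difference of -0.35 (SE 0.17, FDR 0.745).

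**Figure D4:**
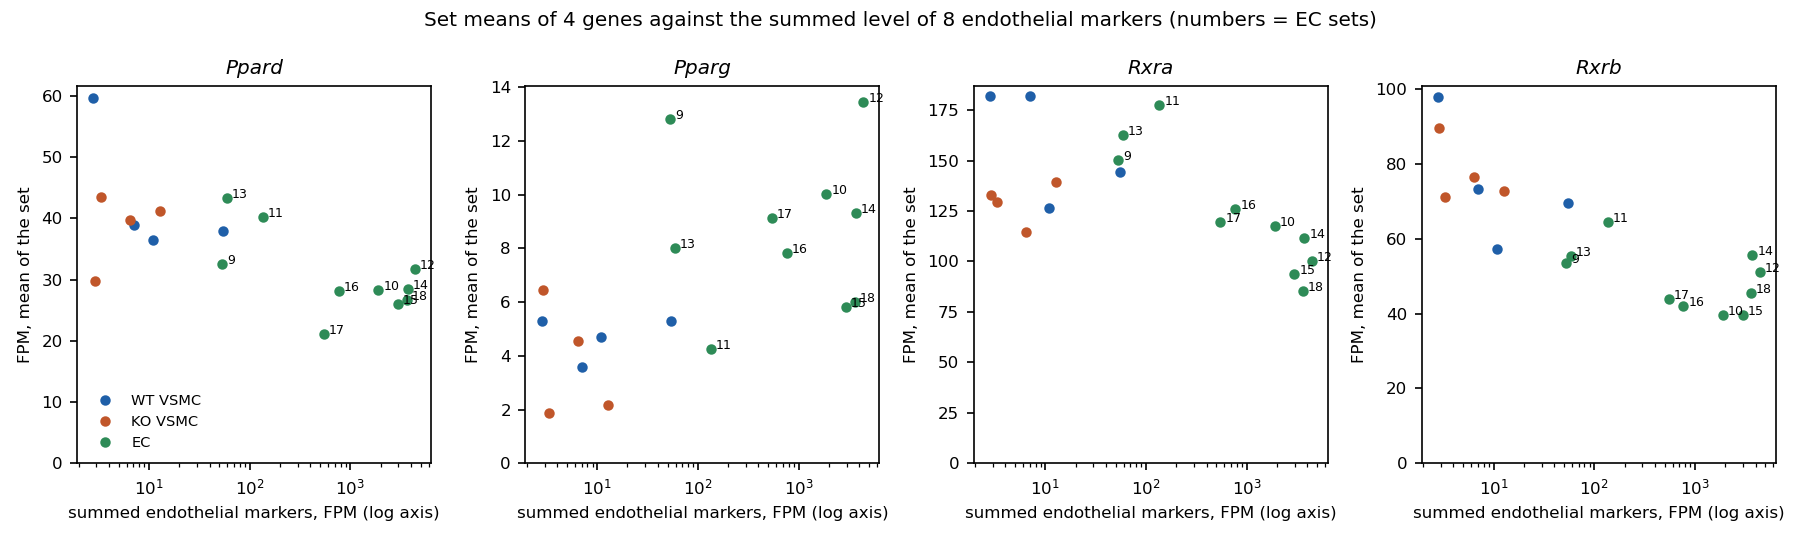
Set means of Ppard, Pparg, Rxra and Rxrb in FPM against the summed endothelial markers of the set (log scale), for WT VSMC, KO VSMC and EC sets. EC sets 9, 11 and 13, with 53.0 to 136 FPM of endothelial markers, are the 3 highest EC sets for Rxra and Ppard, while for Pparg they lie among the other EC sets or, for set 11, below them.

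Genes that work with the 8 members were read from lists. None of 13 coactivators (among them Ncoa1, Med1, Crebbp and Ep300) and none of 7 corepressors (among them Ncor1 and Hdac3) was called by edgeR in a stressor comparison. Of 117 coactivator tests 13 had an unadjusted p under 0.05 and DESeq2 called 1, and of 63 corepressor tests these were 10 and 0. Over all genes in the same 9 comparisons the shares were 12.7% at that p and 2.9% by DESeq2. The largest median of these 2 lists in the 9 comparisons was 0.23, for coactivators under AII + NA in KO VSMC, where the median of all genes was 0.01. Among all genes, 3.92% were called higher and 3.53% lower under ALL in WT VSMC, 1.64% and 1.88% under HG + FFA in EC, and 1.14% and 2.04% under ALL in EC. Of 9 measured factors that PGC-1 proteins bind, only Foxo1 was called, with a log2FC of -0.50 (FDR 0.0101) under ALL in WT VSMC. Of 11 measured other receptors that pair with RXR, 4 were called. Rarb, a retinoic acid receptor, rose by 1.60 under ALL in WT VSMC (FDR 0.0232). In EC under HG + FFA, Thra, a thyroid hormone receptor, fell by 0.43 (FDR 0.00150), Rara fell by 0.34 (FDR 0.0473) and Vdr, the vitamin D receptor, fell by 0.52 (FDR 0.0424), and Thra and Rara also fell under ALL. Of 11 measured genes that supply or carry ligands, Lipe, the hormone-sensitive lipase, rose under HG + FFA and under ALL in all 3 cell types, with log2FC values from 0.70 to 0.89 (0.279% to 3.92% of all genes were called higher in these 6 comparisons). Fabp5, a carrier that delivers fatty acids to PPARδ, rose by 1.19 under ALL in WT VSMC (FDR 0.0198). Ptgs1 fell by 0.29 under HG + FFA in EC and Lpcat3 fell by 0.29 under ALL in WT VSMC. Of the exonic bases of Lpcat3, Rarb, Lipe and Thra, 55.59%, 33.93%, 22.26% and 21.37% also belong to a gene on the other strand.

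Between 3 and 15 of the known PPAR target genes rose under HG + FFA or ALL in each of the 3 cell types, and none was called under AII + NA. Of 42 listed targets, 30 were measured in WT VSMC, 31 in KO VSMC and 30 among EC libraries. Under HG + FFA, 3 were called higher in WT VSMC (background 0.319%), 9 higher and 1 lower in KO VSMC (0.336% and 0.103%), and 15 higher and 1 lower in EC (1.64% and 1.88%). Under ALL, 9 were called higher and 1 lower in WT VSMC (3.92% and 3.53%), 10 higher and 1 lower in KO VSMC (0.279% and 0.12%), and 15 higher and 1 lower in EC (1.14% and 2.04%). These 66 calls came from 16 genes, and their number was 4 without the set as a block, 41 by the study's criteria for DEG and 62 without EC sets 9, 11 and 13. The median log2FC of the list ran from 0.22 to 0.38 in these 6 comparisons, while the median over all genes lay between -0.01 and 0.00. Under AII + NA 0 targets were called by edgeR in each cell type, and DESeq2 called 1, in WT VSMC (1.0% of all genes). At an unadjusted p under 0.05 that treatment gave 7 of 30 targets for WT VSMC (9.42% of all genes), 3 of 31 for KO VSMC (9.76%) and 3 of 30 for EC (6.67%), and the list medians were -0.03, -0.03 and -0.01.

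Pdk4, the kinase that shuts off pyruvate dehydrogenase, was called in all 6 comparisons. In WT VSMC sets 1 to 4 it stood at 21.6, 41.1, 47.3 and 32.7 FPM under Control and at 108, 94.9, 183 and 49.98 FPM under HG + FFA, and the groups did not overlap (log2FC 1.52, SE 0.23, FDR 0.00667). In KO VSMC sets 5 to 8 it stood at 42.4, 57.2, 43.9 and 32.8 FPM under Control and 59.0, 214, 168 and 138 FPM under HG + FFA, again without overlap (log2FC 1.63, SE 0.19, FDR 0.00169). In EC its median was 106 FPM under Control and 254 FPM under HG + FFA, higher in 9 of 9 sets. Angptl4, a secreted inhibitor of lipoprotein lipase, rose by 2.13 in KO VSMC and 3.22 in EC under HG + FFA and by 1.28 in WT VSMC under ALL. Cd36, a fatty acid transporter, rose by 1.95 under ALL in WT VSMC, and its estimate of 3.35 under HG + FFA in EC (FDR 0.0159) was not called by DESeq2 (FDR 0.0987).

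Vldlr, which takes up triglyceride-rich lipoprotein, was the 1 listed target that fell, in 5 of the 9 comparisons. In WT VSMC sets 1 to 4 it stood at 67.6, 109.2, 45.1 and 134 FPM under Control and at 48.8, 61.3, 36.6 and 56.2 FPM under ALL. Every set was lower, with overlap between the groups (log2FC -0.72, SE 0.12, FDR 0.00293). Vldlr was also lower under HG + FFA and under ALL in KO VSMC (-0.58 and -0.64) and in EC (-0.38 and -0.46). Without being called, it was lower in 4 of 4 WT VSMC sets under HG + FFA and under AII + NA (mean log2 ratios -0.29 and -0.49). Under AII + NA it was higher in 3 of 4 sets in KO VSMC (mean log2 ratio 0.20) and in 4 of 8 in EC (-0.06). Over the same 9 comparisons the targets had 66 calls in 273 tests, and 84 by DESeq2, which called 2.9% of all genes there. The members had 0 calls in 63 tests, with 6 to 8 tested per comparison, which is near what the background gives, and 4 of the 8 were barely present. Both lists were chosen with earlier results of these data known. Of the 42 targets, 8 held the repeat of AGGNCA within 5000 bases of their start (19.0%, against 16.4% of all protein-coding genes).

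**Figure D5:**
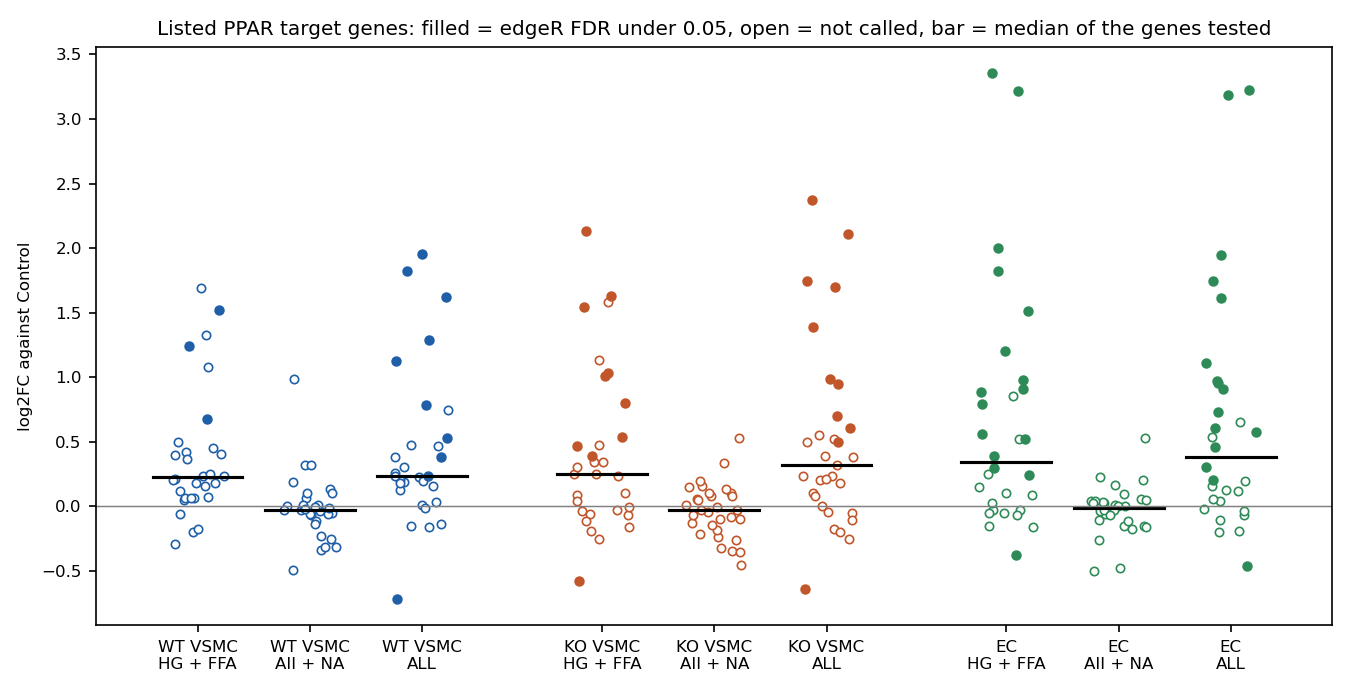
log2FC of the measured PPAR target genes in the 9 comparisons of a stressor with Control. Points are genes, filled where the test was passed, and bars are list medians; the medians under HG + FFA and ALL lie at 0.22 to 0.38 and those under AII + NA near 0.

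Likeness of pattern was described by Pearson's r of log2(FPM + 0.1) after removing the mean of each set, over the 69 libraries, which share sets and depth. Among genes averaging 3 FPM or more, the nearest to Pparg were Pdk4 (r = 0.734), P4ha1 (0.728) and Sdc2 (0.718). Those nearest to Rxra were Pxn (0.857), Smarcc2 (0.823) and Zdhhc8 (0.821), and those nearest to Rxrb were Maz (0.888), Stk11 (0.888) and Epn1 (0.867). For Ppard they were Zmiz2 (0.851), Zdhhc8 (0.830) and Khsrp (0.821), so that Zdhhc8 stood near both Ppard and Rxra. For the scarce Ppara and Ppargc1a no gene exceeded 0.601. Between members, r was 0.78 for Ppard and Rxra, 0.48 for Rxra and Rxrb and 0.36 for Ppard and Rxrb. With the targets called most often, Pparg had an r of 0.70 for Ech1 and -0.45 for Vldlr. None of the other members tested in all 3 cell types exceeded 0.37 in size with any of these or with Pdk4. Rxrg and Ppargc1b were not compared. Differences between conditions remain in all these r values. The targets were picked by their calls in the same libraries, so their r with Pparg is no separate support.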

How the data were processed

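Poly(A) RNA was sequenced. The authors aligned reads to mm39 with HISAT2 2.1.0, counted them over genes by featureCounts and deposited raw counts, unfiltered and not normalized; the strand setting is not stated in the sources used here. Symbols and positions came from the GENCODE annotation of GRCm39, which lacks the identifiers of 0.0241% of counts. Each cell type was fitted in edgeR 4.0.16 (R 4.3.3, limma 3.58.1) with filterByExpr, TMM factors, condition and set, and genotypes or cell types in joint models; intervals are 95%, from the quasi-likelihood t distribution. The filter kept 16905 genes for WT VSMC, 17538 for KO VSMC and 17148 for EC. FPM are counts per 1000000 of TMM-scaled library size, and 0.1 FPM was added before logs of single values.

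The set numbers pair the libraries, since a set is 1 animal in the labels, and same-set libraries deviated together (lowest r 0.531, 0.648 and 0.686 in WT VSMC, KO VSMC and EC). With the set as a block, p-values of stressor effects rest on how far these effects varied from set to set. Those of genotype or cell type under Control, fitted without a block, rest on the spread between sets. No library pair of a group was identical within sampling noise.

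The members and lists were chosen with earlier results of these data known. Named are all members, up to 4 called genes of a list and comparison with the largest |log2FC|, the 4 targets called most often and the 3 genes most like each member. Alternatives were DESeq2 1.42.0, its size factors in edgeR, no filter, no set block, the animal as block in EC, complete sets, set-summed counts, the study's criteria for DEG (both tools, |log2FC| of at least 0.64, at least 3 FPM, protein-coding or lncRNA), each set left out and, added after seeing the data, EC without sets 9, 11 and 13 and 1 library per animal for EC against WT VSMC. Some genes that the naming rule selects are not reported here. Fits were tested on simulated data. Python 3.11.15 and matplotlib 3.10.9 were used for collation and plots.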

Additional observations from a re-analysis of the deposited data

Results flagged for a closer look

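In 10 of 88 groups of 4 to 10 libraries, 1 library of a member stood apart from the others by Dixon's criterion; chance flags about 1 in 20 groups. Of the receptors, Pparg reached 20.4 FPM in ALL of EC set 12, Ppard 58.7 FPM in Control of WT VSMC set 3 and 36.7 FPM, the lowest of its group, in HG + FFA of KO VSMC set 8. Ppara stood at 0.357 FPM in ALL of WT VSMC set 1 and at 2.82 FPM in AII + NA of EC set 9. Of the coactivators, Ppargc1a reached 4.53 FPM in Control and 4.45 FPM in ALL of EC set 9, one of the EC sets low in endothelial markers, and 2.02 FPM in AII + NA of KO VSMC set 8. Ppargc1b reached 0.547 FPM in HG + FFA of WT VSMC set 4, and Rxrg 0.100 FPM in AII + NA of KO VSMC set 5.

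Among the listed genes, the effect of ALL on Fabp5, the fatty acid carrier, differed between EC and WT VSMC by a log2 difference of -1.18 (edgeR FDR 0.0109, interaction term).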

How the results depend on the processing

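Of 2482 member estimates under alternatives, 2277 kept their sign, and none of the 205 others had a main estimate of 1 SE or more or an unadjusted p under 0.05. The number of members called under stressors moved from 0 to 1 in WT VSMC with DESeq2 and without a filter, and in KO VSMC to 1 with DESeq2 and to 2 without a filter and with complete sets only. EC against WT VSMC under Control moved from 0 to 1 with DESeq2 and to 3 without EC sets 9, 11 and 13, and stayed at 0 with 1 library per animal, both choices made after seeing the data. Set-summed counts, which add the stressed libraries and so are not a comparison under Control, gave 3. Leaving out single sets gave 0 to 2 calls in KO VSMC (2 without set 5), 0 to 1 for EC against WT VSMC (1 without set 11) and 45 to 72 target calls. All other member counts stayed at 0. For KO VSMC, leaving out set 5 and complete sets only are the same fit, and both are counted above. The cause of the moves in these counts was not tested. Apart from DESeq2, the share of all genes called under the alternatives is not given here, so these counts are no result about the members.

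The 66 target calls fell to 4 with no set number as a replicate block, and to 41 with the study's criteria, which add a limit on fold and level. They numbered 84 with DESeq2, 89 without a filter, 67 with complete sets and 58 with the animal as block. Dropping the block changed no member count. Ppara, Rxrg and the PGC-1 genes are limited by depth.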
